A study of Mus musculus with 10 samples.

Results

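The mRNAs of iron storage, import and export were followed through 10 single cell libraries of mouse microglia. The genes were 9 rows chosen by symbol from the 18281 symbols of the count tables. They were *Ftl1* and *Fth1* (the light and heavy ferritin subunits), *Hmox1* (heme oxygenase), *Slc40a1* (ferroportin), *Tfrc* (the transferrin receptor), *Slc11a2* and *Slc11a1* (divalent metal transporters) and *Aco1* and *Ireb2* (the iron regulatory proteins). All 9 were listed in all 10 tables, and all 9 passed the filter on low counts. *Ftl1* was placed in the list for its position at the cultured end of the main axis of these cells. Its Pearson r with the first principal component was -0.702 over the 17318 cells of the adult, *in vitro* and slice 3 weeks libraries, rank 7 of 10738 genes by absolute value. *Fth1* had r = -0.632 (rank 20), *Hmox1* -0.238 and *Slc40a1* 0.176, and the other 5 lay between -0.038 and 0.069. The values of *Ftl1* are therefore given as a description with no test, and the other 8 genes were tested.

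The study compared microglia kept in organotypic brain slices with microglia of the adult brain and of mixed glial cultures. All mice were C57BL/6, and each group had 2 libraries. Adult microglia came directly from the brains of adult mice. Slice microglia came from coronal brain slices of neonatal pups after 1 day, 1 week or 3 weeks on culture inserts in medium with horse serum, N2 supplement and PDGF, with more than 1 slice combined per sample where needed. *In vitro* microglia were collected after 3 weeks from the medium above mixed glial cultures of neonatal cortex, grown in horse and fetal bovine serum. All cells were sorted as live, CD11b high and CD45 intermediate, and sequenced by 10x Genomics 3' counting, which tags each captured mRNA with a unique molecular identifier (UMI). Cultured cells came from neonatal tissue and acutely isolated cells from adults, so culture and age at harvest cannot be told apart.

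After quality filters 19059 of 19637 barcodes were kept, from 61 cells in 1 slice 1 week library to 3799 in 1 adult library, with 385373 to 39689540 UMIs per library. Library pairs shared 0 to 23 barcode sequences. All 15 microglia markers read here were detected in the adult libraries, and their summed level, in UMIs scaled to a common library total (CPM), was lower in every cultured library (12829 to 46597) than in both adult ones (70065 and 71865). Some libraries stood apart. All 8 neutrophil markers were detected in slice 1 day 1 and 2 and slice 1 week 1 (summed level 7605 to 40206 CPM), with *S100a8* the most abundant, against 955 in slice 1 week 2 and at most 7.99 in the other 6 libraries. These 4 libraries held 202 cells with over 2% of their UMIs in neutrophil markers. The 8 border macrophage markers summed to 2328 and 2234 CPM *in vitro*, 69.3 to 332 in slices and 7.06 and 12.4 in adult, with all 8 detected in both *in vitro* libraries, adult 1, slice 1 day 1 and 2 and slice 1 week 1 and 5 to 7 in the others. The *in vitro* sum was mostly *Pf4* and *Mrc1*, whereas *Lyve1* (22 and 11 UMIs *in vitro*, 17 and 59 at 1 day) and *Cd163* (25 and 44, 8 and 15) took a larger share of the smaller slice 1 day libraries. The 7 monocyte markers summed to 183 and 380 CPM in slice 1 day 1 and 2 (all 7 detected) and 850.3 in slice 1 week 1 (5 detected), and to at most 7.75 in the other libraries (0 to 4 detected). Erythroid markers summed to 1854 CPM in adult 1 and 3471 in slice 1 day 1, with 2 erythroid cells each, and to at most 3.70 in the others. Adult 1 and slice 3 weeks 1 carry another study label than the other 8 libraries. An alternative fit left out each cell with at least 3 UMIs over at least 2 markers of another cell type. This took all cells of slice 1 day 2 and slice 1 week 1, 72.2% of slice 1 day 1 and 90.4% and 92.4% of *in vitro* cells, and at least 90.0% of the cells taken in each library held 3 or more microglia markers. Values given without the cells carrying other types' markers thus rest on 8 libraries and on few *in vitro* cells (233 and 205).

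Iron enters macrophages as transferrin-bound iron through the transferrin receptor and endosomal metal transporters, or as heme from engulfed cells, which heme oxygenase opens to release iron. Ferritin, a shell of light and heavy chains, stores the iron, and ferroportin is the exporter of iron from cells. When iron is scarce, the iron regulatory proteins bind hairpins called iron-responsive elements, which blocks translation where the hairpin lies before the coding sequence and stabilises the mRNA where it lies after it, so for ferritin and ferroportin the mRNA level is not a measure of the protein.

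The hairpins that a strict form of this element finds among the 9 genes are shown, since they are the sequences through which this control acts. The untranslated regions of GENCODE transcripts (GRCm38) were searched on the transcript strand for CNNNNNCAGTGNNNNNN, a bulged C, a stem of 5 base pairs (G with T allowed) and the loop. Of 21877 genes with a coding transcript 160 (0.731%) held such a site, whereas the loop letters CAGTGN alone stood in the untranslated regions of 75.1%. Of the 9 genes 4 held it, *Ftl1*, *Fth1* and *Slc40a1* before the coding sequence and *Tfrc* at 4 places after it. In *Slc11a1*, *Slc11a2*, *Hmox1*, *Aco1* and *Ireb2* the full site was not found in the annotated untranslated regions, although the loop letters alone were. The unbroken stem asked for here misses elements with other stems, such as the one known after the coding sequence of an isoform of *Slc11a2*, so no match does not show that a gene lacks the control. Each site is printed 5′ to 3′ with 6 flanking bases on each side and the loop in capitals. With these flanking bases, the printed 29 bases lay at chr7:45459779-45459807 (minus strand, *Ftl1*), chr19:9982732-9982760 (plus, *Fth1*), chr1:45925465-45925493 (minus, *Slc40a1*) and, on the plus strand for *Tfrc*, chr16:32631219-32631247, chr16:32631598-32631626, chr16:32631663-32631691 and chr16:32631710-32631738.
Ftl1 5′ UTR: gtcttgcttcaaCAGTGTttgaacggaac
Fth1 5′ UTR: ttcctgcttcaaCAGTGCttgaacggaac
Slc40a1 5′ UTR: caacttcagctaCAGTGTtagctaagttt
Tfrc 3′ UTR, site 1: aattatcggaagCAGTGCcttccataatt
Tfrc 3′ UTR, site 2: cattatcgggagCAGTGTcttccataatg
Tfrc 3′ UTR, site 3: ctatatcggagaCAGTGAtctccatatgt
Tfrc 3′ UTR, site 4: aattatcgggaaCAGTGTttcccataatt

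Ferritin mRNA was far more abundant in cultured than in adult microglia. *Ftl1*, which encodes the light chain, was at 3122 and 3689 CPM in adult (here also scaled with TMM factors, replicates 1 and 2 in this and later sentences), 35824 and 38412 *in vitro*, 18969 and 17335 in the 1 day slices, 12541 and 13650 in the 1 week slices, and 14039 and 15390 in the 3 week slices. Both *in vitro* libraries were the highest of the 10, both adult libraries were the lowest, and no neighbouring groups in the order *in vitro*, slice 1 day, slice 3 weeks, slice 1 week, adult overlapped. As a log2 fold change from adult this was 3.45 (10.9-fold) *in vitro*, 2.41 in the 1 day slices, 1.94 after 1 week and 2.11 after 3 weeks.

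*Fth1*, which encodes the ferroxidase heavy chain, had the same order of groups. It was at 2939 and 2596 CPM in adult, 23959 and 27218 *in vitro*, 11339 and 11290 in the 1 day slices, 8189 and 6353 in the 1 week slices, and 9608 and 8987 in the 3 week slices. No 2 neighbouring groups in that order overlapped. Against adult it rose by 3.21 ± 0.18 (log2, SE) *in vitro* (edgeR adjusted p = 2.62e-07), 2.03 ± 0.17 at 1 day (6.75e-06), 1.39 ± 0.16 at 1 week (1.86e-04) and 1.75 ± 0.17 at 3 weeks (3.47e-05), all by edgeR's quasi-likelihood test with adjustment over 12155 genes. It was also 2.75-fold higher *in vitro* than at slice 3 weeks (edgeR adjusted p = 9.42e-05), while the log2 difference of slice 3 weeks from slice 1 day was -0.28 (edgeR adjusted p = 0.206, 95% interval -0.64 to 0.07).

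**Figure D1:**
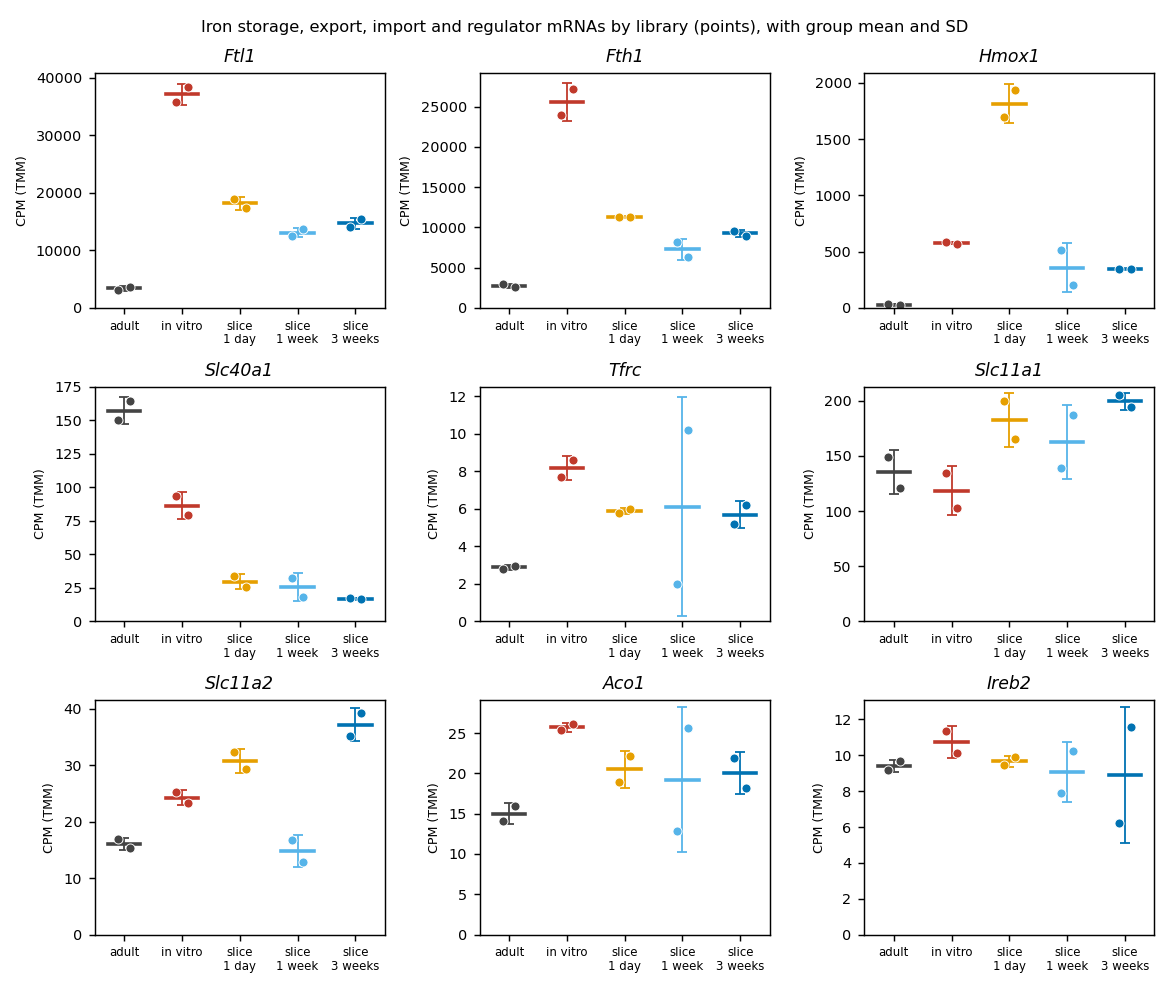
CPM after TMM scaling of the 9 genes (vertical axis, from 0) in the 5 groups (horizontal axis), with 1 point per library, the group mean as a line and the SD between the 2 libraries as error bars. Ferritin was highest *in vitro*, *Hmox1* at slice 1 day and *Slc40a1* in adult, and the slice 1 week libraries differed most from each other in *Tfrc*, *Aco1* and *Hmox1*.

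Since 3' counting takes about 1 count per captured molecule whatever its length, both ferritin genes can be summed and set against each other. Both genes together made up 0.668% and 0.718% of all UMIs in adult, 5.48% and 5.89% *in vitro*, 3.16% and 2.91% in the 1 day slices, 1.94% and 2.03% in the 1 week slices, and 2.34% and 2.34% in the 3 week slices. *Ftl1*, which the list was chosen with, is part of this sum and of the shares per cell that follow, so they are descriptions with no test.

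The ratio of *Fth1* to *Ftl1* moved much less than the sum. It was 0.941 and 0.704 in adult, 0.669 and 0.709 *in vitro*, 0.598 and 0.651 in the 1 day slices, 0.653 and 0.465 in the 1 week slices, and 0.684 and 0.584 in the 3 week slices. *In vitro* 2 lay above adult 2, so the adult and *in vitro* libraries overlapped, and the 3 slice groups overlapped with each other. Adult 1, the highest of the 10, carries the other study label.

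The high ferritin share was found across nearly all *in vitro* cells and was uneven among slice cells. The median cell held 0.626% and 0.673% of its UMIs as ferritin in adult, 5.03% and 5.49% *in vitro*, 2.63% and 2.54% in the 1 day slices, 1.61% and 1.72% in the 1 week slices, and 1.63% and 1.71% in the 3 week slices. The 5th percentile *in vitro* (3.04% and 3.41%) lay above the adult 95th percentile (1.07% and 1.19%). In slice 3 weeks the 5th and 95th percentiles were 0.672% and 6.65% in library 1 and 0.639% and 5.71% in library 2, so the lower tail lay within the adult range and the upper tail reached *in vitro* levels.

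Cells above the higher of the adult 95th percentiles (1.19%) made up 2.50% and 5.02% of adult cells, 99.96% and 99.96% *in vitro*, 92.9% and 90.0% in the 1 day slices, 73.0% and 73.8% in the 1 week slices, and 69.5% and 70.4% in the 3 week slices. Median depth differed, from 1858 UMIs per cell in adult 2 to 13966 in *in vitro* 2. With every cell thinned to 1000 UMIs (66 and 205 adult cells and 2 cells of slice 1 week 2 were too shallow and left out) the shares above the adult limit of 1.3% were 2.65% and 4.03% in adult, 99.8% and 99.9% *in vitro*, 85.9% and 83.7% in the 1 day slices, 64.9% and 61.0% in the 1 week slices, and 60.4% and 62.2% in the 3 week slices. Adult libraries were the lowest and *in vitro* libraries the highest with and without thinning, while the 1 week and 3 week slices overlapped only after it.

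**Figure D2:**
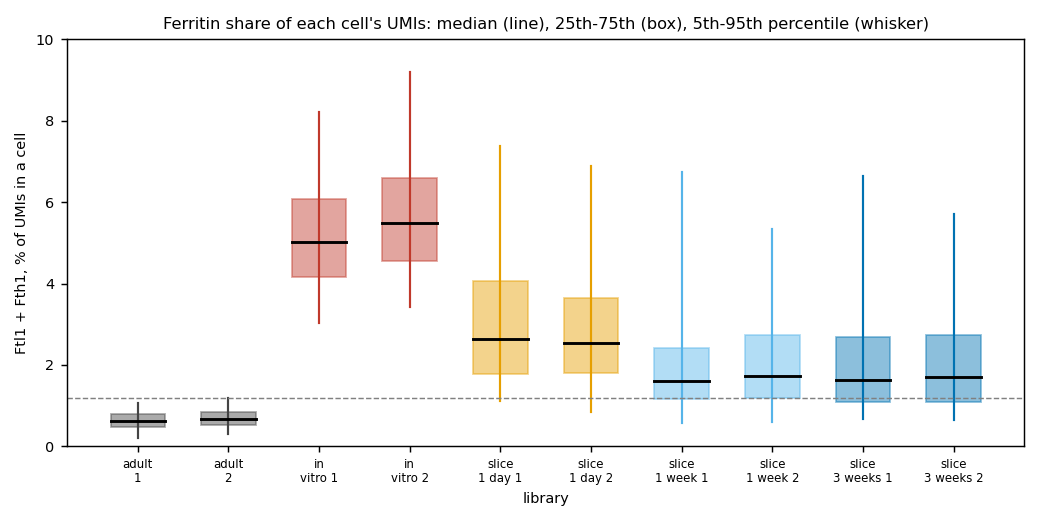
Ferritin share of each cell's UMIs (vertical axis, percent, not thinned) in each library (horizontal axis), with the median as a line, the 25th to 75th percentile as a box and the 5th to 95th as a whisker, and the higher adult 95th percentile (1.19%) as a dashed line. *In vitro* whiskers start at 3.04% and 3.41%, whereas those of the slices run from the adult range to at least 5.33%.

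*Hmox1* had the widest range of the 9 genes. It was at 31.7 and 26.3 CPM in adult, 584 and 572 *in vitro*, 1693 and 1936 in the 1 day slices, 511 and 207 in the 1 week slices, and 348 and 347 in the 3 week slices. Slice 1 day was the highest group and adult the lowest, both apart from all others, and the slice 1 week libraries lay on both sides of slice 3 weeks. Against adult, *Hmox1* rose 62.4-fold at 1 day (log2 5.96 ± 0.37, edgeR adjusted p = 1.62e-06), 19.9-fold *in vitro* (4.31 ± 0.35, 3.34e-06), 12.6-fold at 1 week (3.66 ± 0.34, 4.98e-05) and by 3.58 ± 0.33 on the log2 scale at 3 weeks (3.17e-05). The value at 1 week was 2.86 without slice 1 week replicate 1 and 2.87 without the cells carrying other types' markers, and was called in both.

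Between the time points in slices, *Hmox1* fell by 2.38 ± 0.31 (log2) from 1 day to 3 weeks (edgeR adjusted p = 5.92e-04). The difference between *in vitro* and slice 3 weeks was 0.73 ± 0.30 and missed the threshold (edgeR adjusted p = 0.077), with an interval from 0.07 to 1.40, but 5 of the 15 alternatives called it, among them DESeq2 (0.77, adjusted p = 0.033) and UMIs per cell (1.81, 3.8e-05, with the median of all genes at 0.97). The peak of *Hmox1* and that of ferritin did not fall in the same group, since *Hmox1* averaged 1814 ± 172 CPM (SD, n = 2) at slice 1 day and 578 ± 8.68 *in vitro*, while both ferritin genes were higher in both *in vitro* libraries than in both slice 1 day libraries.

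*Slc40a1*, the iron exporter, was highest in adult and lowest after 3 weeks in slices. It was at 150 and 164 CPM in adult, 93.2 and 78.9 *in vitro*, 33.8 and 25.4 in the 1 day slices, 32.6 and 17.9 in the 1 week slices, and 17.1 and 16.5 in the 3 week slices. Adult and *in vitro* libraries stood apart from each other and above all 6 slice libraries, while the 1 day and 1 week slices overlapped. Against adult it fell by 3.23 ± 0.20 (log2, 9.37-fold) at 3 weeks (edgeR adjusted p = 2.56e-06), by 2.51 ± 0.24 at 1 week (6.65e-05) and by 2.42 ± 0.20 at 1 day (5.95e-06). Without the cells carrying other types' markers the values were -3.34 at 1 week and -3.22 at 1 day, and without slice 1 week replicate 1 the value at 1 week was -3.10, all still called. *In vitro* it fell by 0.87 ± 0.18 as a share of mRNA (1.83-fold, edgeR adjusted p = 0.00197), and without *in vitro* replicate 2 the fall was no longer called (-0.63, edgeR adjusted p = 0.0597). Counted per cell, a scale on which the median of all genes stood 2.04 above adult, its value was 1.32, so it was above 0 and still below that median.

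In counts per 100 cells *Slc40a1* had 53.9 and 36.2 UMIs in adult, 120 and 105 *in vitro*, 24.9 and 24.4 in the 1 day slices, 22.3 and 11.5 in the 1 week slices, and 11.4 and 9.47 in the 3 week slices. All 6 slice libraries were thus below both adult libraries on both scales, whereas the *in vitro* libraries, whose cells held the most UMIs, were above adult per cell and below it in CPM. *In vitro* was 5.13-fold higher than slice 3 weeks (log2 2.36, edgeR adjusted p = 1.24e-05), and 1.68 higher on the log2 scale without the cells carrying other types' markers. From 1 day to 3 weeks in slices it fell by 0.80 ± 0.20 (edgeR adjusted p = 0.0123), which was no longer called without slice 1 day replicate 1 (-0.61, 0.0861) or slice 3 weeks replicate 2 (-0.76, 0.055), and without the cells carrying other types' markers the difference was 0.0047 (0.999).

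**Figure D3:**
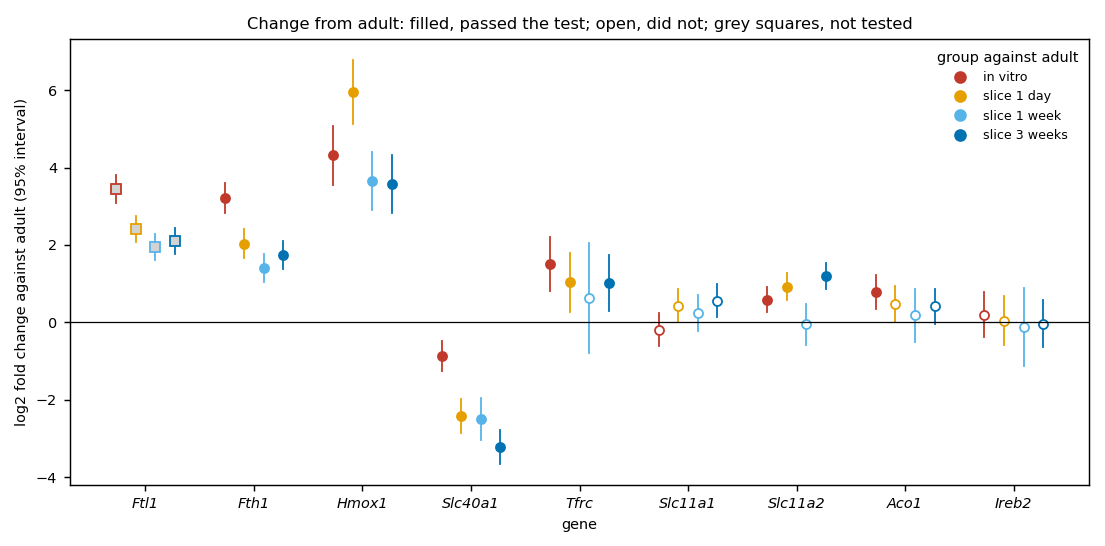
Log2 fold change of each gene against adult (vertical axis) with its 95% interval, for the 9 genes (horizontal axis) in the 4 cultured groups (colours). Filled points passed the test, open points did not, and the grey squares of *Ftl1* were not tested. *Fth1* and *Hmox1* lie above 0 in all 4 groups and *Slc40a1* below 0 in all 4, though counted per cell *Slc40a1* *in vitro* was at 1.32, where the median of all genes was 2.04.

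*Tfrc*, which brings in transferrin-bound iron, rested on 2 to 307 UMIs per library. It was at 2.78 and 2.96 CPM in adult, 7.71 and 8.62 *in vitro*, 5.77 and 5.98 in the 1 day slices, 1.98 and 10.2 in the 1 week slices, and 5.17 and 6.20 in the 3 week slices. *In vitro* was above adult in both libraries and slice 1 week, which rests on 2 and 4 UMIs, spanned both groups. *Tfrc* rose *in vitro* by 1.51 ± 0.31 (log2, edgeR adjusted p = 0.00203), at 1 day by 1.04 ± 0.35 (0.0257) and at 3 weeks by 1.00 ± 0.33 (0.0317). The calls at 1 day and 3 weeks were lost without either adult library (adjusted p from 0.0702 to 0.129), and the 1 day call also without either of its own libraries (0.062 and 0.112) and the 3 weeks call without its replicate 2 (0.0954). Without the cells carrying other types' markers the *in vitro* value was 0.58 (0.29).

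*Tfrc* is known to be high in dividing cells, so cells with at least 2 of 12 cycling genes were read apart. *In vitro*, where these were 23.6% and 31.9% of cells, *Tfrc* was at 9.71 and 9.91 CPM in them and 5.98 and 6.38 in the others. In slice 3 weeks it was at 4.24 and 4.44 in cycling cells and 5.39 and 6.14 in the others. In the 1 day slices it was at 7.41 and 4.82 in cycling cells and 5.61 and 7.14 in the others, so the 2 libraries differed in direction. No *Tfrc* UMI was counted in the few cycling cells of the 1 week slices. Only 8 and 11 UMIs lay behind the cycling values of slice 3 weeks and 6 and 21 behind those of slice 1 day, and the cycling cells were deeper in all of them.

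*Slc11a2*, which moves iron out of endosomes, was at 16.8 and 15.3 CPM in adult, 25.2 and 23.3 *in vitro*, 32.2 and 29.3 in the 1 day slices, 16.8 and 12.8 in the 1 week slices, and 35.1 and 39.3 in the 3 week slices. Slice 3 weeks was the highest group, and slice 1 week overlapped with adult on 17 and 5 UMIs. It rose by 1.21 ± 0.15 (log2) at 3 weeks (edgeR adjusted p = 1.75e-04) and by 0.92 ± 0.16 at 1 day (6.01e-04). *In vitro* it rose by 0.59 ± 0.15 (log2, edgeR adjusted p = 0.00645), at the edge of the fold threshold, and this call was lost with library size alone as scaling (0.28, 0.119), without the cells carrying other types' markers (0.40, 0.136), with the study label in the model (0.57) and without adult replicate 2 (0.52, 0.0534). Against slice 3 weeks the *in vitro* level was lower (log2 -0.62 ± 0.14, edgeR adjusted p = 0.007), a call lost without either *in vitro* library (0.0673 and 0.136) or slice 3 weeks replicate 2 (-0.47), and counted per cell it was 0.46 (0.26), where the median of all genes was 0.97.

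*Slc11a1*, the macrophage metal transporter of the phagosome, was at 149 and 121 CPM in adult, 134 and 103 *in vitro*, 200.2 and 165 in the 1 day slices, 139 and 187 in the 1 week slices, and 205 and 194 in the 3 week slices. Neighbouring groups overlapped throughout. No comparison with adult was called, the nearest being slice 3 weeks with 0.56 ± 0.19 (1.48-fold, edgeR adjusted p = 0.039), just under the fold threshold of 1.5, which DESeq2 (0.60, 0.00894) and 5 other settings, counting per cell among them, placed above it. Against slice 3 weeks the *in vitro* level was lower (log2 -0.75 ± 0.19, edgeR adjusted p = 0.0111), a call lost without *in vitro* replicate 2 (-0.49, 0.196), and counted per cell it was 0.31 (0.453), again below that median.

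*Aco1*, a cytosolic aconitase that turns into an iron regulatory protein when it loses its iron-sulfur cluster, was at 14.1 and 15.97 CPM in adult and 25.3 and 26.1 *in vitro*, with 18.9 and 22.2 in the 1 day slices, 12.8 and 25.6 in the 1 week slices (13 and 10 UMIs), and 21.9 and 18.2 in the 3 week slices. It rose *in vitro* by 0.78 ± 0.20 (edgeR adjusted p = 0.00629), which library size alone as scaling reduced to 0.47 (0.0693). Its other differences from adult were between 0.18 and 0.47 and were not called. *Ireb2*, the other iron regulatory protein, lay between 6.21 and 11.6 CPM in all 10 libraries and was called in no comparison, with log2 differences from adult of 0.19 *in vitro*, 0.05 at 1 day, -0.12 at 1 week and -0.03 at 3 weeks and adjusted p from 0.552 to 0.946. The widest of these intervals, at slice 1 week on 8 and 4 UMIs, ran from -1.14 to 0.89.

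In all, 5 of the 8 tested genes were called higher and 1 lower *in vitro* than in adult, where 50.9% of all 12155 genes were called (22.4% higher and 28.5% lower). At slice 1 day 4 were higher and 1 lower, against 50.3% of all genes called (24.9% higher and 25.4% lower). At slice 1 week 2 were higher and 1 lower (28.6% of all genes, 15% and 13.6%), and at slice 3 weeks 4 and 1 (35.5%, 18% and 17.5%). The 1 lower gene was *Slc40a1* in each. *In vitro* against slice 3 weeks 2 were higher, *Fth1* and *Slc40a1*, and 2 lower, *Slc11a1* and *Slc11a2* (33.3% of all genes called, 13.3% and 20%). From slice 1 day to slice 3 weeks none was higher and 2, *Hmox1* and *Slc40a1*, were lower (26.8% of all genes called, 13.9% and 12.8%). Fewer of the 8 genes were called *in vitro* against slice 3 weeks without *in vitro* replicate 2. Between the slice time points fewer were called without slice 1 day replicate 1, without slice 3 weeks replicate 2 or without the cells carrying other types' markers. Calls among all genes fell as well in each of these fits, which left 1 library in a group. The share of the 8 genes called, 25% to 75%, was above that of all genes in 5 comparisons and below it between the slice time points, on 8 genes. Their median log2 fold change from adult was 0.68 *in vitro*, 0.70 at 1 day, 0.21 at 1 week and 0.78 at 3 weeks, while that of all genes lay between -0.11 and -0.03. The 4 comparisons with adult share the adult libraries.

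Within the study label that holds 8 of the libraries, where adult 2 is the only adult library, log2 differences from adult were 3.30 for *Fth1*, 4.46 for *Hmox1* and -0.93 for *Slc40a1* *in vitro*. Slice 3 weeks could be set against adult within both labels, with 1 library on each side. *Fth1* differed by 1.71 and 1.79, *Hmox1* by 3.46 and 3.72, *Slc40a1* by -3.13 and -3.32, and *Ftl1* by 2.17 and 2.06. The other 5 genes differed by 0.89 and 1.06 (*Tfrc*), 1.06 and 1.36 (*Slc11a2*), 0.46 and 0.68 (*Slc11a1*), 0.64 and 0.19 (*Aco1*) and -0.56 and 0.26 (*Ireb2*), the last with opposite signs in the 2 labels.

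Neutrophil-marker cells moved with the 1 day and 1 week slices, and their values were read apart. In slice 1 day 1, slice 1 day 2 and slice 1 week 1 they held 0.115, 0.16 and 0.202 times as much *Hmox1* CPM as the other cells of their library, 0.681, 0.343 and 0.447 times as much *Ftl1*, and 3.12, 2.42 and 2.37 times as much *Slc40a1* (9 to 42 UMIs). Without them and the erythroid cells no call of the 8 genes changed. *Hmox1* then stood 6.03 above adult at 1 day and 3.72 at 1 week, *Fth1* 2.06 and 1.41, and *Slc40a1* -2.58 and -2.87. Free neutrophil RNA in the remaining cells was not removed, and its part was not tested. Without the cells carrying other types' markers, *in vitro* values were 3.47 for *Fth1*, 4.19 for *Hmox1* and -1.54 for *Slc40a1*, all still called.

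Within the slice 3 weeks libraries, cells with a UMI of *Gpnmb*, a lysosomal glycoprotein of lipid-laden and damage-responsive macrophages, were compared with the rest. They were 291 of 1153 cells in library 1 and 635 of 3740 in library 2, with a median depth of 6908 and 6698 UMIs against 5913 and 5041. *Ftl1* was 1.67 and 1.56 times as high in them, *Fth1* 1.67 and 1.85 times and *Hmox1* 1.83 and 1.57 times. *Slc40a1* was 0.818 and 0.637 times as high on 33 and 51 UMIs, and *Slc11a1* 0.992 and 1.13 times. A single UMI can be free RNA. Neutrophil-marker cells, which should lack *Gpnmb*, had a UMI of it in 0 of 67 cells in slice 1 day 1 (which allows a share of up to 4.48%), 3 of 110 in slice 1 day 2 and 1 of 24 in slice 1 week 1, at median depths of 2247, 4925 and 4490.5 UMIs, but slice 3 weeks held no such cells, so its own background was not measured. In the 104 and 265 cells with 3 or more *Gpnmb* UMIs, a limit set after the values were seen, the ratios to cells without one were 2.18 and 1.79 for *Ftl1*, 2.34 and 2.16 for *Fth1* and 1.38 and 1.34 for *Hmox1*. These are descriptions of cells of 2 libraries, with no test made, and deeper cells are more likely to show *Gpnmb*.

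In cycling cells of slice 3 weeks, *Ftl1* was 0.66 and 0.708 times, *Fth1* 0.668 and 0.764 times and *Hmox1* 0.631 and 0.432 times the level of the other cells. *In vitro* the ratios were 1.02 and 0.982 for *Ftl1*, 0.991 and 0.922 for *Fth1* and 1.29 and 1.35 for *Hmox1*. In the 1 day slices they were 0.775 and 0.821 for *Ftl1*, 0.701 and 0.877 for *Fth1* and 0.44 and 0.651 for *Hmox1*, and in the 1 week slices, on 28 and 9 cycling cells, 1.04 and 0.895 for *Ftl1*, 0.973 and 0.816 for *Fth1* and 1.19 and 0.616 for *Hmox1*. Both ferritin genes were thus lower in cycling cells of the 1 day and 3 week slices, while the ratios *in vitro* and at 1 week lay nearer to 1 or differed between libraries.

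Of 78 other genes of iron handling, 72 were in the tables and 63 could be tested. Against adult, 15 were called higher and 11 lower *in vitro* (41.3%, against 50.9% of all genes), 19 and 15 at slice 1 day (54.0%, against 50.3%), 13 and 8 at slice 1 week (33.3%, against 28.6%) and 15 and 9 at slice 3 weeks (38.1%, against 35.5%). The median log2 fold change of the list was between -0.12 and 0.08 in these 4 comparisons, and that of all genes between -0.11 and -0.03. Between the cultured groups 11 were higher and 10 lower *in vitro* than at slice 3 weeks (33.3%, as for all genes), and 11 and 13 at slice 3 weeks than at slice 1 day (38.1%, against 26.8%). Without the cells carrying other types' markers, fewer genes of the list were called at slice 1 day, at slice 1 week and between the slice time points. Fewer were also called between the slice time points without slice 1 day replicate 2, and at slice 1 week without its replicate 1. Calls among all genes fell as well in each of these fits, which left 1 library at slice 1 day, at slice 1 week or at both.

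Among genes of heme, *Slc46a1*, a heme and folate carrier, fell and *Blvrb*, a biliverdin reductase that acts after heme oxygenase, rose. *Slc46a1* was at 105 and 122 CPM in adult, 11.9 and 11.4 *in vitro*, 22.3 and 26.2 in the 1 day slices, 42.5 and 30.7 in the 1 week slices, and 54.5 and 43.7 in the 3 week slices (*in vitro* log2 -3.29 ± 0.17, edgeR adjusted p = 2.10e-07). In slices it fell by 2.21 at 1 day, 1.56 at 1 week and 1.21 at 3 weeks (edgeR adjusted p = 4.90e-06, 3.91e-04 and 2.57e-04), and per cell these values were -0.63, -0.36 and -0.07, not called, where the medians of all genes were 1.49, 1.10 and 1.05. *Blvrb* was at 68.6 and 71.996 CPM in adult, 560 and 461 *in vitro*, 232 and 218 in the 1 day slices, 216 and 212 in the 1 week slices, and 174 and 261 in the 3 week slices, a log2 rise of 2.86 ± 0.20 *in vitro* (1.47e-06), 1.61 ± 0.20 at 1 week (2.94e-04) and 1.63 ± 0.20 at 3 weeks (1.35e-04). Both cultured systems were apart from adult in both genes, with *in vitro* the farthest. *Slc48a1*, a heme exporter of lysosomes named here after its values were seen, had the pattern of *Blvrb*, with 38.7 and 39.2 CPM in adult, 222 and 189 *in vitro* and 74.1 to 109 in slices. The other tested genes of heme transport and breakdown, *Hmox2* and *Blvra*, did not share it in slices. *Hmox2* was called lower at 1 day (log2 -0.72, edgeR adjusted p = 0.00104) and 3 weeks (-0.64, 0.00332), but not *in vitro* (0.25) or at 1 week (-0.53). *Blvra* was called higher *in vitro* (1.68, 2.01e-05) but in no slice group (0.19, 0.50 and 0.07).

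Among genes of iron uptake, *Slc39a14*, a transporter of iron not bound to transferrin, rose in slices and was not called *in vitro* (0.51, edgeR adjusted p = 0.195). It was at 3.96 and 2.06 CPM in adult, 4.11 and 4.88 *in vitro*, 42.2 and 52.6 in the 1 day slices, 15.8 and 15.4 in the 1 week slices, and 24.8 and 15.4 in the 3 week slices. The rises were 3.92 ± 0.32 at 1 day (edgeR adjusted p = 6.57e-06), 2.31 ± 0.49 at 1 week (0.00562) and 2.65 ± 0.32 at 3 weeks (1.33e-04). *Slc22a17*, a receptor for lipocalin 2, had 40.4 and 38.9 CPM in adult and 2.22 and 1.77 *in vitro* (log2 -4.31 ± 0.22, edgeR adjusted p = 1.62e-07), with 9.79 to 31.7 in slices. *Lcn2* itself, the siderophore-binding lipocalin 2 and a neutrophil product, had 6 and 0 UMIs in adult and 414 and 6247 at 1 day, and at 1 week 1162 UMIs in replicate 1 and none in replicate 2, the replicate with fewer neutrophil markers. Its fitted rises of 10.38 ± 2.04 at 1 day and 11.03 ± 2.07 at 1 week (edgeR adjusted p = 0.00161 and 0.00277) were 8.20 and 8.38 without neutrophil and erythroid cells, rest on a prior count where a library is at 0, and at 1 week the sign turned without slice 1 week replicate 1 (-4.98) or without the cells carrying other types' markers (-3.99).

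**Figure D4:**
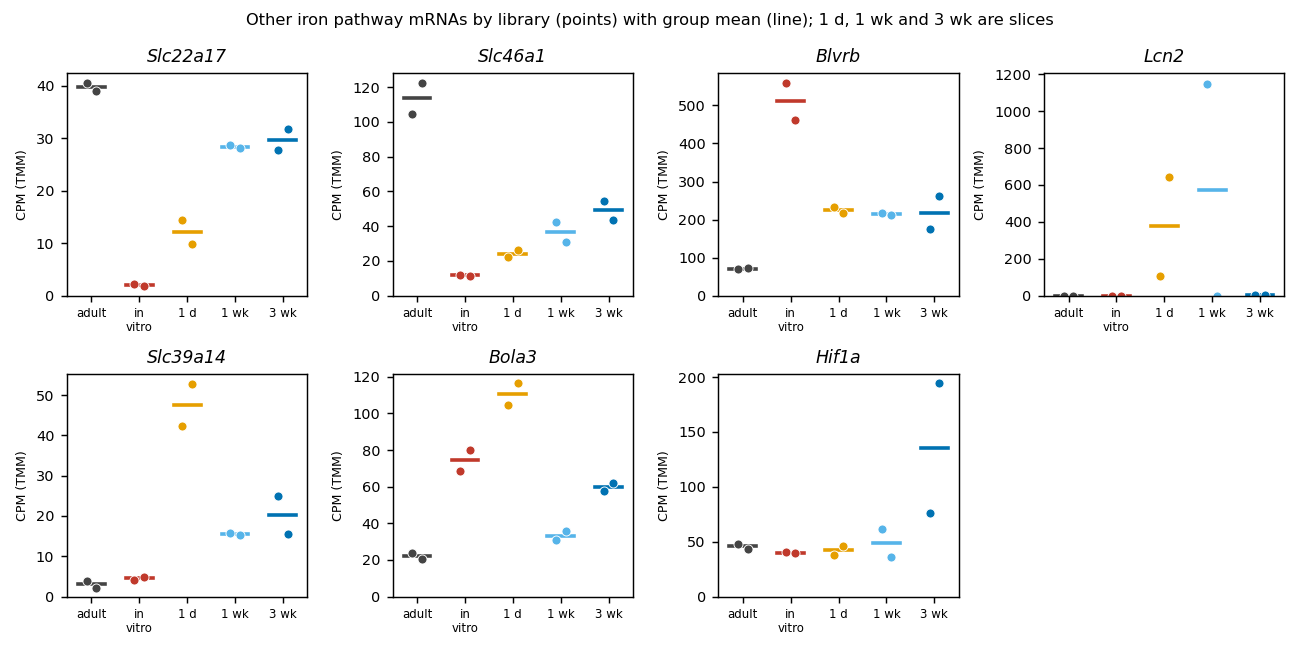
CPM after TMM scaling (vertical axis, from 0) of the 7 other iron pathway genes named by rule, in the 5 groups (horizontal axis), with 1 point per library and the group mean as a line. *Slc22a17* and *Slc46a1* were highest in adult, *Blvrb* *in vitro* and *Slc39a14* and *Bola3* at slice 1 day, while the replicates of *Lcn2* and of slice 3 weeks *Hif1a* lay far apart.

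The list was split by role after its values were seen, so the counts by role are descriptions. Of the 22 genes of iron-sulfur cluster assembly, all tested, 5 were called higher and 2 lower *in vitro* (22.4% and 28.5% of all genes). At slice 1 day 8 were higher and 1 lower (24.9% and 25.4% of all genes), at slice 1 week 5 and 1 (15% and 13.6%) and at slice 3 weeks 5 and 1 (18% and 17.5%). From slice 1 day to slice 3 weeks 1 was higher and 9 lower, against 13.9% and 12.8% of all genes. Without the cells carrying other types' markers, which left 1 library at slice 1 day, lower calls in this comparison were fewer in the whole pathway list. They were also fewer among all genes. *Bola3*, a maturation factor of mitochondrial clusters, rose most at 1 day, from 23.7 and 20.6 CPM in adult to 105 and 117 (log2 2.32 ± 0.15, edgeR adjusted p = 1.91e-06), was at 30.6 and 35.8 at 1 week (0.54, edgeR adjusted p = 0.0872, not called) and at 57.7 and 62.0 at 3 weeks. Of the 8 genes of heme synthesis 2 were called higher and 3 lower *in vitro*, 3 and 4 at slice 1 day, 1 and 3 at slice 1 week and 2 and 2 at slice 3 weeks, beside the same shares of all genes. *Hif1a*, the oxygen-responsive transcription factor, was at 48.2 and 43.3 CPM in adult and 76.5 and 195 at slice 3 weeks (1.57 ± 0.35, edgeR adjusted p = 0.00486), where replicate 1 lay closer to adult than to replicate 2.

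Genes with a like pattern were read over the 10 libraries among 3916 genes, as descriptions across libraries that fall into groups. The 3 most like *Ftl1* were *Ndufa7* (Pearson r = 0.993), *Cox7a2* (0.989) and *Wbp5* (0.985), of which *Ndufa7* averaged 187 CPM in adult and 429 *in vitro*, a narrower range than *Ftl1*. Those most like *Slc40a1* were *Lgals8* (0.978), *Cd300a* (0.955) and *Ptafr* (0.95), the last at 130 CPM in adult, 61.9 *in vitro* and 31.5 at slice 3 weeks. Those most like *Hmox1* were *Tubb6* (0.985), *Psmb4* (0.982) and *Pdap1* (0.981), with *Tubb6* at 13.3 CPM in adult, 238 at slice 1 day and 71.1 at slice 3 weeks. The correlation between *Ftl1* and *Fth1* was 0.978 over the same libraries and that between *Ftl1* and *Hmox1* 0.825.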

How the data were processed

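The deposited files were 1 table per library of unnormalized whole-number counts of UMIs, with genes in rows and cells in columns. Per the labels, the authors made them with Cell Ranger 1.3.0 on mm10 from 10x Genomics 3' libraries, and whether the tables precede the aggregation step is not given in the sources used here. Cells were kept, as in the study, with at most 5% of UMIs from mitochondrial genes, at least 400 detected genes and at most 30000 UMIs, no doublet caller was run, and 15 symbols listed more than once were summed. Since cells are not replicates, counts were summed per library and tested with edgeR 4.0.16 in R 4.3.3, using its quasi-likelihood test with TMM scaling, 1 model over the 10 libraries and a minimum count of 10, which kept 12155 genes. A gene was called at a Benjamini-Hochberg adjusted p under 0.05 and a fold over 1.5. The 2 libraries per group are biological replicates per the series' design text, and replicates of every group differed beyond sampling noise. Alternatives included DESeq2 1.42.0. Tables and searches were made with Python 3.11.15, pandas 2.3.3, numpy 2.4.6 and scipy 1.17.1, and the fits were tested on simulated data. Total UMIs ranged from 385373 to 39689540, so the slice 1 week values are the least precise.

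The members and gene lists were chosen with earlier results of these data known. Named pathway genes were, for each comparison with adult, the 3 called genes with the largest absolute change at an average log2 CPM of at least 3, and genes of like pattern the 3 with the highest Pearson r of log2(CPM + 1) at an average of at least 5. Cell-type limits on neutrophil (over 2% of UMIs) and erythroid markers (over 1%) were set after the marker levels were seen. Ferritin pseudogenes are annotated in the mouse genome and had no rows of their own, so how reads shared with *Ftl1* and *Fth1* were counted cannot be seen here. The filter on cells carrying other types' markers, used only as an alternative, left out 6556 cells with at least 3 UMIs over at least 2 markers of another cell type.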

Additional observations from a re-analysis of the deposited data

Results flagged for a closer look

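The change from adult differed between *in vitro* and slice 3 weeks microglia, by edgeR's direct test of those 2 groups, for *Fth1* (log2 1.46 higher *in vitro*), *Slc40a1* (2.36 higher), *Slc11a1* (-0.75) and *Slc11a2* (-0.62). Between slice 3 weeks and slice 1 day it differed for *Slc40a1* (-0.80) and *Hmox1* (-2.38), both lower at the later time. The *Slc11a1*, *Slc11a2* and later *Slc40a1* differences lost their call without single libraries, whereas the *Fth1*, *Hmox1* and *in vitro* *Slc40a1* differences did not.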

How the results depend on the processing

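*Fth1* and *Hmox1* against adult in all 4 comparisons, *Slc40a1* against adult in the 3 slice groups, *Slc11a2* at slice 1 day and 3 weeks, *Fth1* and *Slc40a1* *in vitro* against slice 3 weeks and *Hmox1* between the slice time points kept their calls under all 15 alternatives. Counting UMIs per cell moved the median of all genes against adult to 2.04 *in vitro*, 1.49 at 1 day, 1.10 at 1 week and 1.05 at 3 weeks, and turned *Slc40a1* (1.32), *Slc11a1* (1.95) and *Hif1a* (1.95) *in vitro*, *Hif1a* at 1 day (1.44), *Slc11a2* at 1 week (1.12), *Ireb2* at 3 weeks (1.02), and *Slc11a1* (0.31) and *Slc11a2* (0.46) *in vitro* against slice 3 weeks (median 0.97). All of these but *Slc11a2* at 1 week lay below the median of all genes. On that scale 59 of 63 iron pathway genes and 10341 of all 12155 genes were called *in vitro* against adult. At 1 day 8 of the tested members and 8675 genes were called, at 1 week 6 members and 5511 genes, and at 3 weeks 8 members and 7136 genes. *In vitro* against slice 3 weeks 48 pathway genes and 7082 genes were called. Library size alone as scaling lowered the share of higher calls from 44.0% to 29.9% *in vitro*, from 52.5% to 37.7% at 1 week and from 50.6% to 35.8% at 3 weeks.

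Without the cells carrying other types' markers, which emptied slice 1 day 2 and slice 1 week 1 so that 8 libraries were fitted, 20 pathway genes and 2687 genes were called at 1 day, 5 and 1088 at 1 week, 2610 genes *in vitro* against slice 3 weeks, and 1 member, 2 pathway genes and 265 genes between the slice time points, where *Slc40a1* turned to 0.0047 and *Lcn2* at 1 week to -3.99. The ferritin share was then 6.00% *in vitro*, 3.32% at 1 day, 2.10% at 1 week and 2.32% at 3 weeks, and the *Fth1* to *Ftl1* ratio 0.869 *in vitro* and 0.703 at 1 day. It was 2.07% at 1 week without neutrophil and erythroid cells and 2.33% at 3 weeks with all barcodes.

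Leaving out 1 library at a time gave 8 to 19 pathway genes and 1445 to 2987 genes at 1 week, with *Lcn2* from -4.98 to 15.91, 2 to 4 members and 2468 to 4790 genes *in vitro* against slice 3 weeks, and 1 to 2 members, 11 to 26 pathway genes and 1442 to 4285 genes between the slice time points. The lowest values came without slice 1 week replicate 1, *in vitro* replicate 2 and slice 1 day replicate 2, except that 1 member was left without slice 1 day replicate 1 or slice 3 weeks replicate 2. A lone library was assumed to vary like the other groups. The cause of these changes was not tested, and each of these fits had fewer samples or cells. Replicate numbers did not pair the samples (correlations of deviations from -0.135 to 0.123), and with the replicate block 6, 5, 3, 5, 4 and 2 members were called in the 6 comparisons, as without it. Depth limits *Tfrc*, *Slc11a2*, *Slc40a1*, *Aco1* and *Ireb2* at slice 1 week, where a library held 2 to 33 UMIs of each.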
